A study of Mus musculus with 6 samples.

Results

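The expression of 10 genes was followed here in mouse primary mesangial cells, which hold together and contract the capillary tuft of the kidney glomerulus, with and without transforming growth factor beta 1 (TGF-β1). They comprise the nuclear receptors Ppara, Ppard and Pparg, the lipins Lpin1, Lpin2 and Lpin3, and Plin2, Lpl, Cpt1a and Angptl4, which act in lipid storage, release and oxidation. The 10 genes were taken by symbol from the 19730 rows of the RNA-Seq table, and each had 1 row. The rule used only the symbols, although the list was drawn up with earlier results of these data known. Of the 10, 9 passed the filter on low values, a mean of at least 1 FPKM (fragments per kilobase of transcript per M (mega) mapped fragments) over the 6 libraries.

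All cells were cultured in Dulbecco's medium with 25.5 mM glucose and 20% foetal bovine serum and were used at passages 3 to 6, so both groups shared the high glucose and the serum. The 3 TGF-β1 libraries came from cells exposed for 72 h to TGF-β1 at 10 ng/ml, and the 3 Control libraries came from cells without it. No strain, sex or age is given for the source animals. The labels do not say that the 3 libraries of a group came from separate cultures, so p-values measure the spread between these samples, which may be technical. No genotype, transgene or deletion is named for either group.

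The peroxisome proliferator-activated receptors (PPARs) are lipid-sensing transcription factors that bind DNA in a pair with a retinoid X receptor. PPARα, encoded by Ppara, drives fatty acid oxidation genes in liver, kidney tubule and muscle, PPARδ has a broad tissue range, and PPARγ is the master regulator of fat cell formation. Lipins are phosphatidate phosphatases: they turn phosphatidate into diacylglycerol, the precursor of triglyceride and of membrane phospholipids, and lipin 1 can also act in the nucleus as a coactivator of PPARs. Perilipin 2 (Plin2) coats lipid droplets, lipoprotein lipase (Lpl) frees fatty acids from circulating triglyceride, Angptl4 is a secreted inhibitor of that lipase, and Cpt1a makes the acylcarnitines that carry fatty acids into mitochondria. Plin2, Angptl4 and Cpt1a are textbook PPAR target genes.

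The promoters of the 3 genes around which the results below turn are given first, because known PPAR and E-box motifs were looked for in them. Sequences are from RefSeq on the build GRCm38.p6, which is not the build of the expression data, and each runs 5′ to 3′ on the strand of the gene from 250 bases before an annotated start through the first 30 transcribed bases. Capitals mark AGGTCA, the core unit recognised by PPARs and other nuclear receptors, or its reverse complement TGACCT, and CACGTG, an E-box. The E-box was added to the search after the members' sequences had been seen. Lpin3 has an upstream start at chr2:160880420-160880699 (plus strand) and a downstream start at chr2:160887918-160888197, Plin2 lies on the minus strand at chr4:86670030-86670309, and Cpt1a on the plus strand at chr19:3323051-3323330.
Lpin3 upstream: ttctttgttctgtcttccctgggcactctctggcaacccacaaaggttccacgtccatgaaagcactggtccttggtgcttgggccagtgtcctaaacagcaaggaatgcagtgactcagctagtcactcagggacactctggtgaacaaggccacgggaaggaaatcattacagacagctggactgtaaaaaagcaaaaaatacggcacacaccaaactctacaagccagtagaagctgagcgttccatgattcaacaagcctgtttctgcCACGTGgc
Lpin3 downstream: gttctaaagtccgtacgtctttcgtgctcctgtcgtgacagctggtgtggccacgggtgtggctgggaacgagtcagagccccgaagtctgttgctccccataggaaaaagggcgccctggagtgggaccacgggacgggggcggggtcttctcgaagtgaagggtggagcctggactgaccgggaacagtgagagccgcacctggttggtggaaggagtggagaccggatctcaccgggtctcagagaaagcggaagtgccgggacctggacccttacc
Plin2: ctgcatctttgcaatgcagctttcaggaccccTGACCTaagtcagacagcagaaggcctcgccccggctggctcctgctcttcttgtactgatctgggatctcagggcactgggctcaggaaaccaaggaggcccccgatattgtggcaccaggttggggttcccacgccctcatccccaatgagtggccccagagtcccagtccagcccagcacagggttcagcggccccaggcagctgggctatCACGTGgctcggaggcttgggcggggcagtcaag
Cpt1a: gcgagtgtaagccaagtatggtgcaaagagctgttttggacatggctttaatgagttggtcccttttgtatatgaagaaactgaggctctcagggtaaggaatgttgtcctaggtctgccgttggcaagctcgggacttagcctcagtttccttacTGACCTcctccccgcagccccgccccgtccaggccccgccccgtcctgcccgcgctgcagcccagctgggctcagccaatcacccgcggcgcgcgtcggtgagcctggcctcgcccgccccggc

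RefSeq promoters were found for 8 of the 10 genes, 13 promoters in all, and none was matched for Lpl and Angptl4. Motifs were searched on both strands of windows from 250 bases before to 50 bases after the start, and shares are over 32851 promoters of the same length. The PPAR element, written as a direct repeat of AGGTCA with 1 base between the copies, was in 0 members' promoters and in 0.0396% of all promoters. Its single unit AGGTCA was in promoters of 4 members, which were Plin2 (first base at position -218 from the start), Cpt1a (-94), Lpin1 (-74) and 2 of the Pparg promoters (-28 and -9), and in 16.3% of all promoters. CACGTG was in promoters of 3 members, Plin2 from position -4, the upstream promoter of Lpin3 from position 23 and the first promoter of Lpin2 from position -9, and in 7.15% of all promoters. Of the motifs known from TGF-β signalling, the SMAD palindrome GTCTAGAC was in 0 of the members' promoters against 0.213% of all, and CAGACA was in 3 members, Lpin3, Plin2 and Pparg, against 21.0% of all. TCACNCCAC, written for the sterol element, was in 0 members' promoters and in 1.24% of all. The shares are per promoter, whereas some members have several promoters, so counts of members are not like them. Counted by promoter, AGGTCA was in 5 of the 13, CACGTG in 3 and CAGACA in 3. These matches describe the letters of a short window and are not binding sites.

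Depth recovered from the lowest FPKM values was 10.1 to 11.1 M (mega) mapped fragments per library. The correlation of log2(FPKM + 1) across tested rows (Pearson's r over genes, which are not independent replicates) was 0.978 to 0.994 within groups and 0.894 to 0.916 between them. The TGF-β1 libraries differed among themselves by base composition: the deviation of a gene from its group mean rose or declined with its GC content at Spearman's rho of 0.271, -0.391 and 0.318 across genes in TGF-β1 replicates 1 to 3, against -0.0902, 0.0107 and 0.0984 in the Controls. All 5 textbook TGF-β responses used as a check were higher with TGF-β1, among them Col1a1, a chain of type I collagen, at 231 ± 6.10 FPKM in Control and 953 ± 37.4 FPKM with TGF-β1 (mean ± SD, n = 3 each, as throughout). In these bulk samples a smaller number of cells of one type and less RNA per cell cannot be told apart.

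Expression was compared with limma on log2(FPKM + 1), two-sided, with the Benjamini-Hochberg adjustment over the 11898 rows that passed the filter, and an adjusted p under 0.05 was called changed. Across these rows 48.1% were called changed, 24.5% up and 23.6% down. Among the 9 members tested, 3 rose (Lpin3, Plin2 and Angptl4), 1 fell (Cpt1a) and 5 did not pass the test (Ppard, Pparg, Lpin1, Lpin2 and Lpl). The 4 of 9 is near the share of all tested rows, so the number of changed members is no result about these genes. The median log2 change was -0.003 over the members tested and -0.02 over all tested rows. A log2 change of 1 or more was seen in 2 members, Lpin3 and Plin2, both up, against 6.56% of tested rows called up by that much and 13.9% in either direction. The groups did not overlap in 5 members, 3 with TGF-β1 higher and 2 with it lower (Cpt1a and Pparg), against 29.9% and 29.5% of tested rows. The members differed in size of change: Lpin3 stood at percentile 98.6 and Plin2 at percentile 95.7 of the absolute log2 changes of all tested rows, whereas Cpt1a and Angptl4 stood at percentiles 78.1 and 77.2.

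**Figure D1:**
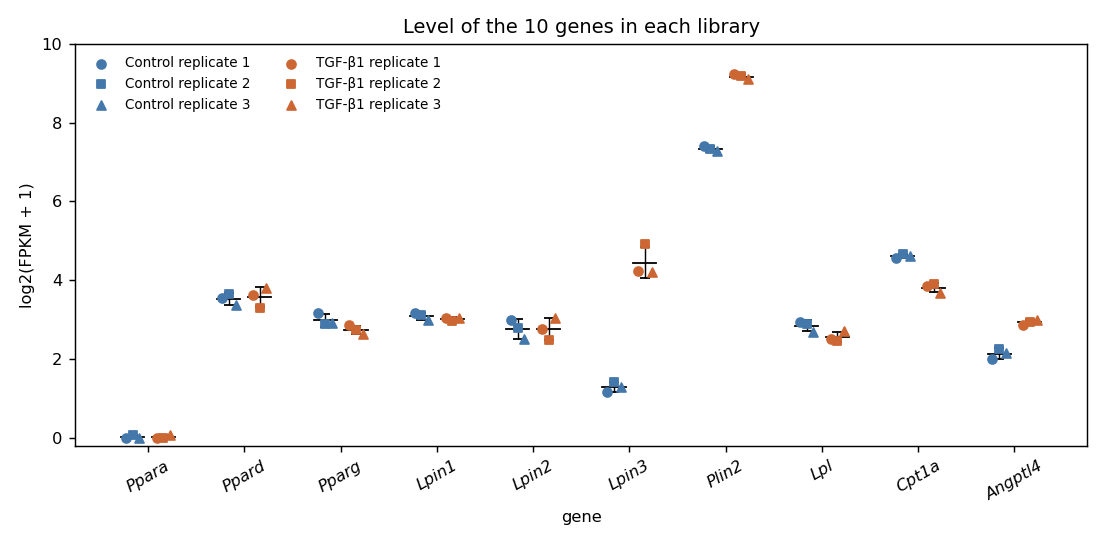
The y axis gives log2(FPKM + 1) of the 10 genes on the x axis, with one point per library, blue for Control and orange for TGF-β1, the symbol marking the replicate number, and black lines for the group mean and SD on this scale. Lpin3 (means of 1.43 and 21.4 FPKM) and Plin2 (160.4 and 576 FPKM) show the widest gaps, Cpt1a is lower and Angptl4 higher with TGF-β1, the points of Ppard, Lpin1 and Lpin2 overlap, and Ppara is at or near 0 in all 6 libraries.

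The receptors did not pass the test. Ppara was barely detected: it was listed at 0 in Control replicates 1 and 3 and TGF-β1 replicates 1 and 2, at 0.0486 FPKM in Control replicate 2 and at 0.0496 FPKM in TGF-β1 replicate 3. Each of the latter values equals 1 fragment, under the 0.145 to 0.159 FPKM to which 3 fragments correspond, so no fold is given and no difference was detectable at this depth. Its row carries the identifier of a transcript of 360 nt, but the size of its steps is that of the annotated coding transcript of 2063 nt.

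Ppard was the most abundant receptor transcript by FPKM. It measured 10.7, 11.6 and 9.28 FPKM in the Control libraries and 11.3, 8.76 and 12.8 FPKM with TGF-β1, means of 10.5 ± 1.15 and 10.96 ± 2.06 FPKM. The groups overlapped, the change being 0.04 on the log2 scale (SE 0.15, limma adjusted p = 0.83). The lowest and the highest of the 6 values were both TGF-β1 libraries. Ppard is GC-rich, at 59.5% of its transcript, and its order among the TGF-β1 libraries follows that of the GC trend above. The part of base composition in that spread was not tested.

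Pparg was lower in each TGF-β1 library than in each Control library, but the difference did not pass the test. Its values were 8.05, 6.34 and 6.50 FPKM in Control and 6.21, 5.60 and 5.18 FPKM with TGF-β1, means of 6.96 ± 0.944 and 5.66 ± 0.520 FPKM. The Control mean was 1.23 times the TGF-β1 mean (log2 change -0.25, SE 0.12, limma adjusted p = 0.124). Groups that do not overlap were common in this table, at 59.4% of tested rows. The call depended on the processing: with libraries rescaled to the summed FPKM of protein-coding rows the log2 change of Pparg was -0.42 (limma adjusted p = 0.0185), and with the GC and length trend of each library removed it was -0.35 (limma adjusted p = 0.0311).

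FPKM is per length, so the family members were set against each other within a library. This holds only as far as the length used fits the transcript measured, which is uncertain for genes with several transcripts. With the length of the named transcript 49.9% of their low values were whole numbers of fragments, and with the longest transcript 49.0%. Orders and shares within a family carry this limit. Of the summed PPAR FPKM, Ppard made up 60.1% ± 3.82 in Control and 65.5% ± 5.12 with TGF-β1 (exact permutation test, two-sided, p = 0.2), and Pparg made up 39.8% ± 3.98 and 34.4% ± 5.27 (exact permutation p = 0.3). The sum was 17.5 ± 1.54 and 16.6 ± 1.99 FPKM (exact permutation p = 0.6). In all, 25 such sums, shares and ratios were compared over the families of this report. With 3 libraries against 3 the smallest p is 0.1, and after Benjamini-Hochberg adjustment over the 25 the smallest is 0.139, so none of them could pass the threshold.

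The lipins split. Lpin3 rose strongly, while Lpin1 and Lpin2 did not pass the test. Lpin3 measured 1.22, 1.64 and 1.43 FPKM in Control and 17.7, 29.0 and 17.5 FPKM with TGF-β1, means of 1.43 ± 0.210 and 21.4 ± 6.60 FPKM. Every TGF-β1 library exceeded every Control library by a wide margin, and TGF-β1 replicate 2 was well above the other TGF-β1 libraries.

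The mean of Lpin3 was 15.0-fold higher with TGF-β1 (log2 change 3.17, SE 0.206, limma adjusted p = 9.6e-05). Within the numbered pairs the fold was 14.5, 17.7 and 12.3. Lpin3 moved from percentile 5.04 of the tested rows by Control level to percentile 65.6 by TGF-β1 level, and 63 of the tested rows had a log2 change at or above its own. An opposite-strand lincRNA gene, Gm16751, overlaps Lpin3 but shares 0 exonic bases with it.

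Lpin1, the lipin best known from fat and muscle, measured 7.92, 7.63 and 6.91 FPKM in Control and 7.21, 6.74 and 7.22 FPKM with TGF-β1. Its groups overlapped, and the log2 change was -0.07 (SE 0.086, limma adjusted p = 0.512). With rescaling to the summed protein-coding FPKM its log2 change was -0.25 with a limma adjusted p of 0.0497, just inside the threshold. Lpin2 measured 6.95, 5.95 and 4.65 FPKM in Control and 5.75, 4.56 and 7.26 FPKM with TGF-β1. Its means of 5.85 ± 1.15 and 5.86 ± 1.36 FPKM were nearly equal, but the spread within each group was wide (log2 change -0.003, SE 0.19, limma adjusted p = 0.992). The row of Lpin2 is named for a retained-intron transcript, and the part of transcript choice in its value was not tested.

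The lipin makeup differed accordingly. Lpin1 made up 50.9% ± 2.08 of the summed lipin FPKM in Control, Lpin2 39.4% ± 3.69 and Lpin3 9.79% ± 1.91. With TGF-β1 Lpin3 made up 61.5% ± 9.22, Lpin1 20.9% ± 3.69 and Lpin2 17.6% ± 5.79. By FPKM the most abundant lipin was thus Lpin1 in every Control library and Lpin3 in every TGF-β1 library, an order that depends on the transcript lengths used. Per library the Lpin3 share was 7.59%, 10.8% and 11.001% in Control. It was 57.7%, 72.0% and 54.8% with TGF-β1, so the groups did not overlap (exact permutation p = 0.1, the smallest possible). The summed lipin FPKM was 14.8 ± 1.61 in Control and 34.3 ± 5.25 with TGF-β1, a ratio of 2.33, in which the difference comes from Lpin3.

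Plin2, the droplet coat protein, was the most abundant of the 10 genes in all libraries and rose further. It measured 168, 159.7 and 153 FPKM in Control and 599.8, 581 and 548 FPKM with TGF-β1, means of 160.4 ± 7.40 and 576 ± 26.2 FPKM. The libraries within a group lay close together, and the groups were far apart. The fold was 3.59 (log2 change 1.84, SE 0.0813, limma adjusted p = 2.54e-05), and 3.57, 3.63 and 3.57 within the numbered pairs. Plin2 was at percentile 95.1 of tested rows by level in Control and 98.1 with TGF-β1.

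The other perilipins went the other way or were near 0. Plin3, which coats small droplets in many cell types, fell from 57.7 ± 0.329 to 42.9 ± 2.07 FPKM (limma adjusted p = 0.00374 for a log2 change of -0.42). Plin4, abundant in fat cells, measured 2.004 ± 0.299 FPKM in Control and 0.184 ± 0.0989 FPKM with TGF-β1. It passed the filter only through the Control libraries, so its call there is no support, and it was also called lower in the limma fit without the filter. Plin5 was listed at 0 in the 3 Control libraries and in 2 of the TGF-β1 libraries. The share of Plin2 in the summed perilipin FPKM was 72.8% ± 0.903 in Control and 93.0% ± 0.244 with TGF-β1, without overlap (exact permutation p = 0.1). The row of Plin2 is named for a processed transcript of 588 nt while the longest transcript of the gene has 1888 nt. Its level relative to other genes therefore depends on which length was used. Its ratio between libraries does not, provided that the same length and mix of transcripts apply in all libraries. Whether the mix differed between the groups was not tested.

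Lpl, the lipase at the vessel surface, measured 6.72, 6.45 and 5.45 FPKM in Control and 4.72, 4.46 and 5.54 FPKM with TGF-β1, means of 6.21 ± 0.669 and 4.91 ± 0.562 FPKM. The groups overlapped by 1 library each, Control replicate 3 and TGF-β1 replicate 3. The difference did not pass the test (log2 change -0.29, SE 0.117, limma adjusted p = 0.0863), and it did after rescaling to the summed protein-coding FPKM (-0.45, adjusted p = 0.0172) or after removal of the GC and length trend (-0.44, adjusted p = 0.0188). Lpl has the lowest GC content of the members with a value, 43.5%.

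Angptl4, the inhibitor of Lpl, rose. It measured 2.98, 3.80 and 3.46 FPKM in Control and 6.26, 6.64 and 6.96 FPKM with TGF-β1, means of 3.41 ± 0.411 and 6.62 ± 0.347 FPKM. All TGF-β1 values lay above all Control values, and the fold was 1.94 (log2 change 0.79, SE 0.105, limma adjusted p = 0.00145). If the longest transcript of the gene was the one measured, these values rest on about 94.2 to 215 fragments per library. Counting error alone is then up to 10.3%.

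Lpl and Angptl4 together give the ratio of the lipase to its inhibitor at the RNA level. Lpl exceeded Angptl4 in each Control library, with ratios of 2.26, 1.70 and 1.58, and was below it in each TGF-β1 library, with ratios of 0.754, 0.672 and 0.796. Which gene stands higher depends on the transcript lengths used. The means were 1.84 ± 0.362 and 0.741 ± 0.0633 (exact permutation p = 0.1). Within the wider angiopoietin-like family, Angptl2 was the main transcript in both groups.

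**Figure D2:**
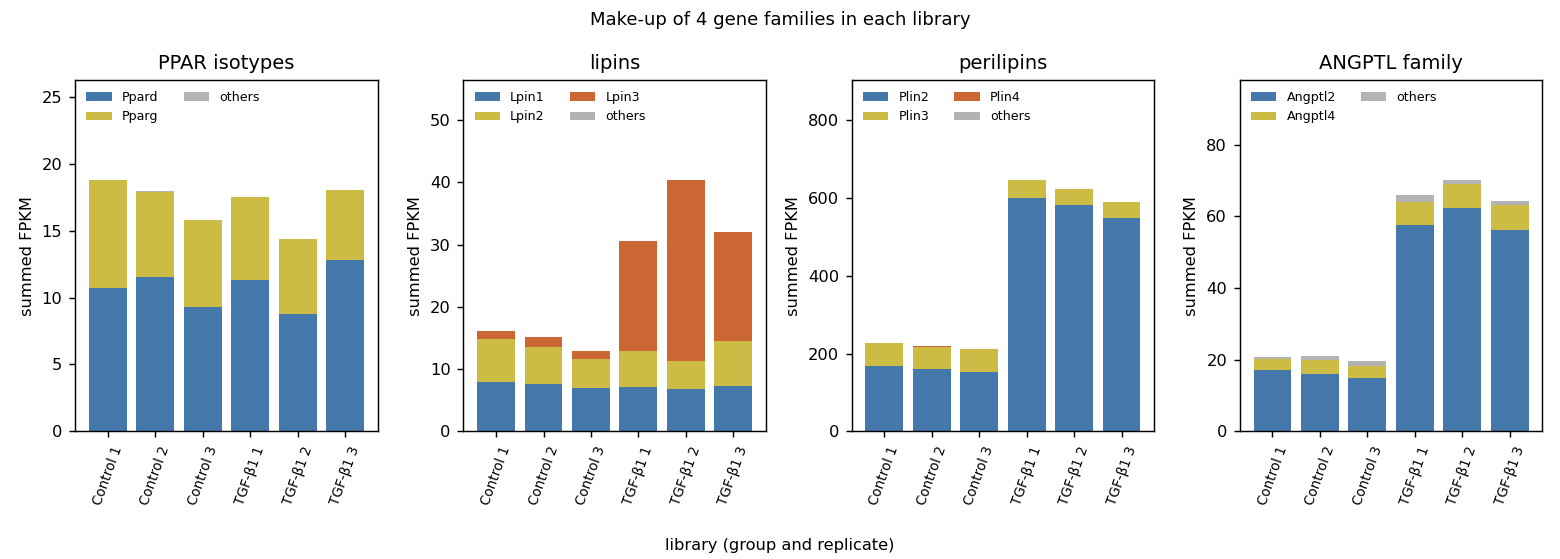
Stacked bars give the summed FPKM (y axis, linear from 0) of the PPAR, lipin, perilipin and angiopoietin-like (ANGPTL) families in each of the 6 libraries (x axis), with one colour per gene and grey for the remaining genes. The ANGPTL bars cover Angptl1 to Angptl4, Angptl6 and Angptl7. The PPAR bars average 17.5 FPKM in Control and 16.6 FPKM with TGF-β1, the taller TGF-β1 bars of the lipins come from Lpin3, those of the perilipins from Plin2 and those of the ANGPTL family mainly from Angptl2.

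Cpt1a, the gatekeeper of mitochondrial fatty acid oxidation, fell. It measured 22.8, 24.4 and 23.6 FPKM in Control and 13.4, 13.9 and 11.8 FPKM with TGF-β1, means of 23.6 ± 0.791 and 13.02 ± 1.11 FPKM. The groups were clearly apart, and the Control mean was 1.81 times the TGF-β1 mean (log2 change -0.81, SE 0.087, limma adjusted p = 0.000612). Within the numbered pairs the Control value was 1.70, 1.76 and 2.002 times the TGF-β1 value.

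Cpt1a was not the main CPT1 transcript in these cells. Cpt1b, the form best known from muscle, measured 103 ± 3.52 FPKM in Control and 52.8 ± 2.84 FPKM with TGF-β1 (limma adjusted p = 0.000196 for a log2 change of -0.95), and Cpt1c, best known from brain, measured 11.7 ± 0.552 and 10.1 ± 0.811 FPKM (adjusted p = 0.12). Cpt1a therefore made up 17.1% ± 0.340 of the summed CPT1 FPKM in Control and 17.1% ± 1.11 with TGF-β1 (exact permutation p = 0.9), with the sum at 138 ± 4.04 and 75.9 ± 2.82 FPKM. Cpt1b shares 2744 exonic bases with Chkb on the same strand, and Chkb has 0 rows in the table, so the level of Cpt1b is uncertain.

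**Figure D3:**
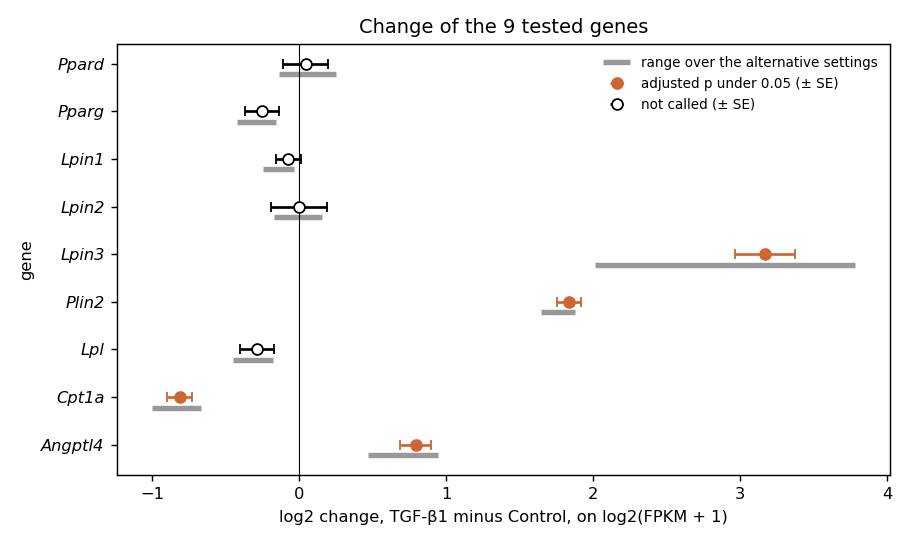
The x axis gives the difference of mean log2(FPKM + 1), TGF-β1 minus Control, for the 9 members tested, as points with the standard error, filled in orange where the limma adjusted p was under 0.05 and open otherwise, and a grey bar spans the values under the alternative processing. The bars of Lpin3 (3.17), Plin2 (1.84), Angptl4 (0.79) and Cpt1a (-0.81) stay on one side of 0, as do those of Pparg, Lpin1 and Lpl, and the 5 genes not called lie between -0.29 and 0.04.

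In order of FPKM in Control the 10 genes ran Plin2, Cpt1a, Ppard, Lpin1, Pparg, Lpl, Lpin2, Angptl4, Lpin3 and Ppara. From Lpin1 to Lpin2 the order is not firm, because the values of neighbouring genes overlapped between libraries. With TGF-β1 Lpin3 stood second, at 21.4 FPKM against 13.02 for Cpt1a, and Angptl4 (6.62 FPKM) exceeded Lpl (4.91 FPKM). Of the 4 changed members, each kept its direction and its call under every alternative processing that gave a value for it, with log2 changes of 2.01 to 3.78 for Lpin3, 1.64 to 1.87 for Plin2, -0.998 to -0.67 for Cpt1a and 0.47 to 0.94 for Angptl4.

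The partners of the PPARs moved in both directions. In the list of receptor partners and coregulators 11 genes were tested, 2 rose and 6 fell (72.7% changed, against 48.1% of all tested rows), with a median log2 change of -0.35. Rxra, the retinoid X receptor with which PPARs bind DNA, fell from 13.9 ± 1.66 to 6.05 ± 0.406 FPKM (limma adjusted p = 0.000499 for a log2 change of -1.08). Nrip1, a corepressor of nuclear receptors, rose from 3.19 ± 0.314 to 10.4 ± 0.703 FPKM (limma adjusted p = 0.000114 for a log2 change of 1.45).

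The coactivator genes Crebbp (log2 change -0.69), Ncoa1 (-0.60) and Ncoa2 (-0.59) fell, and so did Rxrb (-0.38). Rxrb lost its call with the GC and length trend removed (limma adjusted p up to 0.310), and Ncoa2 in replicates 1 and 3 alone (0.0587). Ncor1, a corepressor and the most abundant of the list in Control, fell from 73.3 ± 2.99 to 57.5 ± 8.25 FPKM. The call was weak: Ncor1 (limma adjusted p = 0.0467) lost its call without any 1 of the Control libraries, without TGF-β1 replicate 1 or 3 and with the replicate block. Ppargc1a, the PGC-1α coactivator of PPARs, was below the filter at 0.732 ± 0.240 FPKM in Control and 0.0639 ± 0.0417 FPKM with TGF-β1. It was called lower in the limma fit without the filter (adjusted p = 0.00563). So was Ppargc1b, also below the filter (0.607 and 0.216 FPKM, limma adjusted p = 0.0092).

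Fatty acid uptake and activation had 10 genes tested, of which 5 rose and 4 fell (90%, against 48.1% of all tested rows, a difference that was not tested). Of these, Acsl6 and Slc27a3 passed the filter only through the group where they were high. The long-chain acyl-CoA synthetases differed among themselves. Acsl3, which sits on nascent lipid droplets, rose from 13.3 ± 2.81 to 48.3 ± 6.55 FPKM (limma adjusted p = 0.00042 for a log2 change of 1.80), and Acsl4, which prefers arachidonate, rose from 9.26 ± 0.675 to 32.8 ± 3.16 FPKM. Acsl1 fell from 7.17 ± 0.742 to 2.40 ± 0.455 FPKM, and the transporter gene Slc27a1 fell from 40.3 ± 8.58 to 8.10 ± 0.759 FPKM (limma adjusted p = 0.000195 for a log2 change of -2.16). The fatty acid binding protein genes Fabp5 (log2 change 1.39) and Fabp3 (1.12) rose, and the scavenger receptor Cd36 was listed at 0 in 5 of the 6 libraries.

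In the fatty acid oxidation list 24 genes were tested, 11 fell and 1 rose (50% changed, against 48.1% of all tested rows, of which 23.6% down), with a median log2 change of -0.29 against -0.02 over all tested rows. Acot1, an acyl-CoA thioesterase and a classical PPARα target, fell from 9.19 ± 1.66 to 1.87 ± 0.330 FPKM (limma adjusted p = 0.00027 for a log2 change of -1.82). The β-oxidation enzymes Acaa2 (log2 change -1.05) and Acadm (-0.95) fell, as did Hadha (-0.55), the α-subunit of the mitochondrial trifunctional protein, from 106.6 ± 10.4 to 72.3 ± 3.89 FPKM. Ucp2, a mitochondrial carrier, was the gene that rose, from 2.79 ± 0.336 to 5.60 ± 0.455 FPKM. The remaining 12 did not pass the test, among them Cpt2, Acadl and Acadvl.

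Genes of glycerolipid synthesis, in which lipins act, were called at a share near that of all tested rows: of 15 tested, 3 rose and 3 fell (40%, against 48.1%, median log2 change 0.06). Ppap2b, a phosphatidate phosphatase of the cell surface, fell from 24.4 ± 2.34 to 3.87 ± 0.0952 FPKM (limma adjusted p = 1.72e-05 for a log2 change of -2.38). Mogat2, a monoacylglycerol acyltransferase, measured 0.306 ± 0.329 FPKM in Control and 1.88 ± 0.396 FPKM with TGF-β1, and like G0s2 and Plin4 it passed the filter only through the group where it was high and was also called without the filter. Agpat2 (log2 change -0.66) and Dgat1 (-0.63) fell. Ctdnep1, the phosphatase that activates lipins, had the highest level of the list and did not pass the test (110 ± 11.2 and 89.0 ± 6.48 FPKM, adjusted p = 0.0515). Without Control replicate 2, 3 rather than 6 genes of this list were called, and Dgat1 was among those lost.

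In the lipid droplet list 10 genes beside Plin2 were tested, 4 rose and 3 fell (70%, against 48.1% of all tested rows, median log2 change 0.01). G0s2, an inhibitor of the triglyceride lipase ATGL, was listed at 0 in 2 Control libraries and at 0.289 FPKM in the third, and measured 3.26, 1.85 and 3.01 FPKM with TGF-β1. It passed the filter only through the TGF-β1 libraries, so its call among the filtered rows is no support, and it was also called in the limma fit without the filter. Abhd5, a coactivator of the same lipase, rose from 17.3 ± 3.73 to 28.5 ± 3.06 FPKM (limma adjusted p = 0.0166 for a log2 change of 0.71), a call lost without TGF-β1 replicate 2. Pnpla2, which encodes ATGL, measured 39.8 ± 2.20 and 38.9 ± 5.46 FPKM and did not pass the test (adjusted p = 0.812). Lipe, another lipase gene of this list, fell from 3.49 ± 0.446 to 2.02 ± 0.355 FPKM (limma adjusted p = 0.0144 for a log2 change of -0.58). Its call was lost in replicates 1 and 3 alone.

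In the list of the lipoprotein lipase system and the other angiopoietin-like genes, 8 were tested, 3 rose and 1 fell (50%, against 48.1% of all tested rows, median log2 change 0.14). Angptl2 was the main angiopoietin-like transcript and rose from 16.1 ± 1.11 to 58.7 ± 3.23 FPKM (limma adjusted p = 3.05e-05 for a log2 change of 1.81). Angptl4, although it rose itself, therefore made up 16.6% ± 2.06 of the summed FPKM of Angptl1 to Angptl4, Angptl6 and Angptl7 in Control and 9.93% ± 0.767 with TGF-β1. That sum leaves out Gm6484, another tested gene of this list, which measured 3.15 ± 1.20 and 3.80 ± 2.11 FPKM and was not called. With it the share of Angptl4 would be lower. Lipg, the endothelial lipase, rose from 1.35 ± 0.145 to 6.38 ± 0.596 FPKM, Vldlr rose (log2 change 0.64), and Lipa, the lysosomal acid lipase, fell from 22.8 ± 0.489 to 14.8 ± 1.73 FPKM. Angptl1, Angptl6 and Angptl7 were below the filter.

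**Figure D4:**
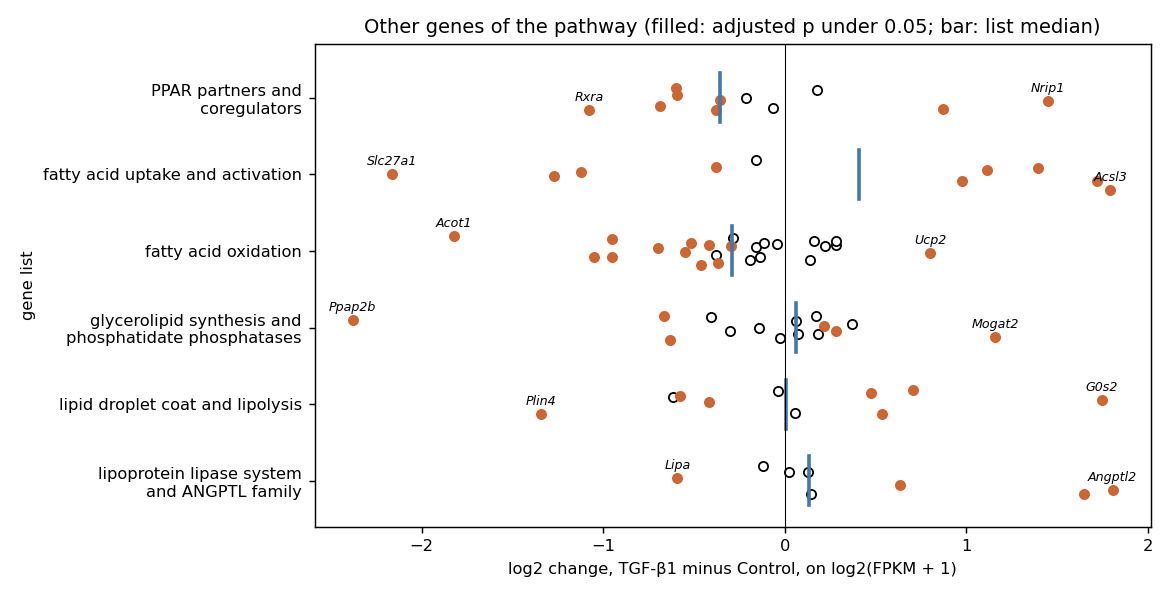
The x axis gives the difference of mean log2(FPKM + 1), TGF-β1 minus Control, with one point per tested gene in each of the 6 pathway lists (y axis), filled in orange where the limma adjusted p was under 0.05 and open otherwise, a blue bar at the list median, and the largest called increase and decrease labelled. Oxidation genes lie mostly below 0 (median -0.29), and the uptake and activation list spreads from Slc27a1 at -2.16 to Acsl3 at 1.80.

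The scale between libraries moved these counts. Rescaling to the summed protein-coding FPKM shifted the median log2 change of all tested rows by -0.17 and turned 2911 up and 2810 down calls into 2015 up and 3927 down. Under that scale 3 members rose and 4 fell, as Pparg, Lpin1 and Lpl were called down as well. The receptor partner list then had 1 up and 7 down, uptake and activation 5 and 4, oxidation 1 and 16, glycerolipid synthesis 1 and 5, the droplet list 2 and 4, and the lipase list 3 and 1.

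The labelled cell type was checked against marker genes. Of 12 mesangial and stromal markers 11 had a row. Acta2 (997 and 3887 FPKM without and with TGF-β1), Pdgfrb (37.5 and 29.2) and Meis1 (5.75 and 3.98) were present. Tbx18 and Gata3 (1.76 and 1.03 for Gata3) were present too, and neither was called. Pdgfrb (limma adjusted p = 0.0396) and Meis1 (limma adjusted p = 0.0458) were called lower with TGF-β1. The calls were weak: of 20 alternatives, Pdgfrb lost its call in 10 and Meis1 in 8. Foxd1 was also lower with TGF-β1 (2.52 and 0.564). It passed the filter only through the Control libraries and was also called without the filter. Cspg4, below the filter, was higher with TGF-β1 (0.0735 and 1.21) in the fit without it. Des, Itga8, Thy1 and Pdgfra were near 0, at means of at most 0.271 FPKM. The summed level of the markers was 968 to 1148 FPKM in Control and 3626 to 4310 FPKM with TGF-β1, nearly all of it Acta2, which codes for smooth muscle actin. Some markers of other cells moved with the treatment. The 6 macrophage markers with a row, of 10 listed, summed to 87.0 to 114 FPKM in Control and 9.03 to 11.3 FPKM with TGF-β1, through Cd14 and Csf1r. Cd68 did not follow them (2.79 and 2.22 FPKM, limma adjusted p = 0.393), and Ptprc, Lyz2 and Itgam were at or near 0 in both groups. Csf1r (6.27 and 0.411 FPKM) passed the filter only through the Control libraries and was also called without the filter. The 9 tubule and podocyte markers with a row, of 12, summed to 129 to 164 FPKM and 16.4 to 19.1 FPKM, mostly through Cdh16. Synpo (12.3 and 7.88 FPKM) and Podxl (2.21 and 1.18) also fell, the call of Podxl being lost without Control replicate 2 or TGF-β1 replicate 1 or 3. Lrp2 (1.43 and 0.230) was lower and Krt18 (0.279 and 1.57) higher in the fit without the filter, and Cdh1 and Krt8 were near 0.

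The 5 adipocyte markers with a row, of 10, summed to 6.99 to 7.26 FPKM in Control and 1.93 to 2.75 FPKM with TGF-β1, through Lipe, Plin4 and Retn. Adipoq and Fabp4 were each listed at 0 in 5 of the 6 libraries. Lipe and Plin4 are also in the droplet list. The 6 endothelial markers with a row, of 9, summed to at most 1.14 FPKM in any library, and Cdh5 and Kdr were listed at 0 in Control. The part of other cell types in the lower Cpt1a and in the changes of the lists was not tested.

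Over 10790 protein-coding rows with transcripts of 300 nt or more, the gene whose log2(FPKM + 1) followed each changed member most closely over the 6 libraries was Cap1 for Lpin3 (Pearson's r = 0.9997), Itgb3 for Plin2 (0.9999), Plk1s1 for Cpt1a (0.9994) and Sh3pxd2a for Angptl4 (0.998). These are descriptions over 6 libraries that fall into 2 groups, and such values were common: 294, 435, 145 and 49 rows reached an r of 0.99 with the respective member. For the members that did not pass the test the closest rows were Plec for Ppard (0.993), Zfp354a for Pparg (0.979), Gm14399 for Lpin1 (0.978), Gm9776 for Lpin2 (0.974) and Mmgt2 for Lpl (0.999). Gpam, which begins glycerolipid synthesis, was the second closest to Pparg (0.971).

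On the mm9 build of the data, the receptor genes lie at chr15:85565413-85633249 (Ppara, plus strand), chr17:28369699-28438414 (Ppard, plus) and chr6:115311239-115440419 (Pparg, plus). The lipin genes lie at chr12:16542475-16596576 (Lpin1, minus), chr17:71531900-71599157 (Lpin2, plus) and chr2:160706406-160731738 (Lpin3, plus). The others lie at chr4:86294290-86315964 (Plin2, minus), chr8:71404390-71431347 (Lpl, plus), chr19:3323301-3385732 (Cpt1a, plus) and chr17:33910695-33918520 (Angptl4, minus). All 10 are annotated as protein-coding genes.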

How the data were processed

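RNA-Seq was performed on an Illumina sequencer. TopHat was used by the authors for mapping to mm9, and Cufflinks for the FPKM estimate. The submitters' processing notes name TopHat2 2.0.11. The table as deposited gives FPKM, with 1 column for each library, and no scaling between libraries is stated. The study tested counts with DESeq, whereas counts were not used here. Rows carry a transcript identifier (19699 of 19730 were found in GENCODE M1, 19555 with the same symbol). Of 12221 rows of genes with several transcripts, 99.6% are named for the transcript that starts leftmost, so the identifier need not be the transcript measured. Whether strand was used is not stated.

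Groups and replicate numbers came from the labels. The 10 genes and the pathway and marker lists were chosen with earlier results of these data known. Tests used limma 3.58.1 in R 4.3.3 (eBayes, trend set to TRUE) on log2(FPKM + 1), which understates changes of low genes. Rows needed a mean FPKM of at least 1. Named list genes are the largest called increase and decrease without overlap, the highest gene, whole families, and further genes chosen after their values were seen. A few genes of the lists are not reported here. On simulated data 68.5% of 200 rows changed by 1 log2 unit were recovered at 4.86% false calls. The simulated rows were independent, without the GC trend or shared replicate deviations. Only those 200 of 11898 were changed, whereas 48.1% of rows were called here. The simulation therefore checks the procedure and does not give the error rate of these data.

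The depth came from low FPKM values of protein-coding genes with 1 annotated transcript of at least 600 nt. Of these values 99.5 to 99.9% were whole multiples of 1 fragment within 0.1 fragment, for an assumed fragment length of 200 nt. For genes with several transcripts, as all members but Cpt1a are, the share was 49.9% with the named transcript's length and 49.0% with the longest. Counting error alone, computed with the longest transcript of the gene, reaches 15.0% for Lpin3 in Control. Shares and ratios were compared with exact permutation tests (20 splits).

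Same-numbered libraries of the 2 groups deviated together (correlations of 0.210, 0.418 and 0.152 across genes, all above 0.1). Control replicate 1 with TGF-β1 replicate 3 (0.201) and Control replicate 3 with TGF-β1 replicate 1 (0.127) did so too. The numbers may therefore pair the samples, but the check does not separate replicates 1 and 3. The main limma fit and the permutation tests took the libraries as unpaired, and the replicate block was the paired alternative. Alternatives were a replicate block, other scalings, pseudocounts (0.1 and 5) and filters, GC and length correction, and leaving out each library. Other steps ran in Python 3.11.15 with pandas 2.3.3, numpy 2.4.6, scipy 1.17.1 and, for plots, matplotlib 3.10.9.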

Additional observations from a re-analysis of the deposited data

How the results depend on the processing

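Lpin3, Plin2, Cpt1a and Angptl4 kept direction and call under all alternatives that gave a value for them (20 each, but 18 for Plin2, which had no GC value, as for Lpin2). With the replicate block, 5391 genes and the same number of members, 4, were called, and the block changed no member's call. The limma adjusted p with it was 0.000612 for Lpin3, 0.000612 for Plin2, 0.00365 for Cpt1a and 0.00554 for Angptl4. With the block the log2 change of Pparg was -0.25 with limma adjusted p = 0.0926. The GC and length correction called Pparg at -0.35 and Lpl at -0.44, alone or with the block (adjusted p = 0.0224 and 0.0298 with it).

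Rescaling to the summed protein-coding FPKM called 7 members and gave -0.42 for Pparg, -0.45 for Lpl, -0.25 for Lpin1 and -0.13 for Ppard, which reversed its sign without a call. In replicates 1 and 3 alone, Lpin2 reversed to 0.16, the Cpt1a share of CPT1 to -0.135 percentage points, and the glycerolipid and droplet lists had 3 and 4 called genes. At an adjusted p under 0.01, 3672 genes were called, with 5 in the receptor partner list, 3 in the glycerolipid list and 3 in the droplet list. A mean FPKM of at least 3 left 3 in the droplet list.

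Leaving out 1 library at a time gave 4419 to 5446 called genes, 4 to 4 members, 6 to 8 receptor partners, 9 to 9 uptake genes, 10 to 12 oxidation genes, 3 to 6 glycerolipid genes (3 without Control replicate 2), 5 to 8 droplet genes and 4 to 4 lipase genes. Log2 changes ranged from -0.07 to 0.18 for Ppard, -0.31 to -0.16 for Pparg, -0.12 to -0.04 for Lpin1, -0.15 to 0.14 for Lpin2, 2.94 to 3.29 for Lpin3, 1.81 to 1.87 for Plin2, -0.36 to -0.23 for Lpl, -0.86 to -0.75 for Cpt1a and 0.72 to 0.85 for Angptl4. Values of reversed sign were 0.11 (without Control replicate 1), 0.01 (without Control replicate 2) and 0.14 for Lpin2, and -0.03 (without Control replicate 3) and -0.068 for Ppard. Differences in share ranged from -0.0902 to 0.0915 points for Ppara (with -0.0439), 2.63 to 7.68 for Ppard, -7.73 to -2.54 for Pparg, -31.2 to -27.8 for Lpin1, -24.3 to -18.6 for Lpin2, 46.4 to 55.1 for Lpin3, 19.7 to 20.7 for Plin2 and -0.391 to 0.673 for Cpt1a (with -0.128 and -0.144), and that of the Lpl to Angptl4 ratio from -1.24 to -0.897. The cause was not tested. A Ppara difference is below what this depth can show.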
